A study of Mus musculus with 2 samples.

Results

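Lsamp, Cadm2, Adgrl3, Ptprz1, Nav3, Dab1, Anks1b and Sphkap encode membrane adhesion proteins, adhesion receptors and cytoplasmic scaffolds best known from neurons and glia. They are 8 of the 32285 genes listed for cells of the mouse cornea and limbus, and they were picked by name because their levels in the epithelium of these same libraries differed between genotypes. Their levels in epithelial groups and in Schwann-like cells, and the ratios between the libraries there, are therefore given as a description. Droplet single-cell RNA sequencing was run on dissociated cornea and limbus, the rim at the edge of the cornea that holds its epithelial stem cells, of wild-type and Pax6-deficient mice. The series' text names 2 mice for each genotype, each genotype has 1 library, and pooling of mice is not described. The groups are wild type (wt) and Pax6 +/-, heterozygous for Pax6, the gene of a transcription factor needed for eye development, and the allele, strain, age and sex were not given. With 1 library for each genotype no test between genotypes was possible, and every ratio below compares these libraries and not the conditions.

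Pax6, the gene that names the groups, stood at 372 counts per 1000000 (CPM) in wt epithelial cells and at 743 CPM in epithelial cells of the library labelled Pax6 +/-, a ratio of 2.00 (95% counting interval 1.98 to 2.02). This goes against the direction of the label, so the group is called by its label throughout. The allele is not given, and reads from outside an altered part of a gene check nothing. CPM here are unique molecular identifiers (UMIs) of a gene scaled to the summed UMIs of the cells, without mitochondrially encoded genes. Intervals cover counting error only.

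After filtering, 10154 wt cells (median 10218 UMIs) and 9542 cells labelled Pax6 +/- (median 12537 UMIs) were left. Epithelial cells, taken as those with at least 30 UMIs of Krt5, Krt14 and Krt15 together per 10000, numbered 8552 (84.2% of the kept cells) and 6796 (71.2%). The pan-epithelial list was present in full, with 7 of 7 markers at 20 CPM or more in each library. This is no separate check for Krt5, Krt14 and Krt15, which are in the list and set the gate. The 2 libraries also differ in the sexes they hold: 94.6% of wt cells had Xist UMIs and no Y-linked UMIs, against 46.2% of cells of the library labelled Pax6 +/-, where 39.4% had Y-linked UMIs and no Xist. A total of 33 kept barcodes occurred in both libraries, 22 of them epithelial in both, and leaving these out moved no member's epithelial level by more than 1.41%.

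As background, Lsamp is an IgLON protein, an immunoglobulin-domain molecule held to the outer membrane by a lipid anchor, and Cadm2 belongs to the nectin-like synaptic adhesion molecules. Adgrl3 is a latrophilin, an adhesion G protein-coupled receptor that binds teneurins and FLRT proteins on neighbouring cells. Ptprz1 is a receptor tyrosine phosphatase whose ligands include pleiotrophin, midkine and tenascins. Nav3 is a neuron navigator that binds microtubules, Dab1 is the adaptor that carries the reelin signal inside the cell, Anks1b is a postsynaptic scaffold with ankyrin repeats, and Sphkap anchors protein kinase A. In the cornea, Krt12 is the keratin of differentiated corneal epithelium, Gpha2 marks a limbal progenitor population, and Krt13 is a keratin of conjunctival and other non-corneal mucosal epithelium.

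Upstream sequences are shown for 4 members, Lsamp and Sphkap, lower in the library labelled Pax6 +/-, and Adgrl3 and Ptprz1, higher there over all epithelium, so that the regions in front of the genes can be read beside their levels. Each is the 250 bases before an annotated RefSeq start (GRCm38.p6), written 5′ to 3′ on the gene's strand, at chr16:39984114-39984363 on the plus strand for Lsamp, chr1:83408201-83408450 on the minus strand for Sphkap, chr5:81020321-81020570 on the plus strand for Adgrl3 and chr6:22875252-22875501 on the plus strand for Ptprz1. Capitals mark matches, on either strand, to the GC box GGGCGG or to CCAAT.
Lsamp: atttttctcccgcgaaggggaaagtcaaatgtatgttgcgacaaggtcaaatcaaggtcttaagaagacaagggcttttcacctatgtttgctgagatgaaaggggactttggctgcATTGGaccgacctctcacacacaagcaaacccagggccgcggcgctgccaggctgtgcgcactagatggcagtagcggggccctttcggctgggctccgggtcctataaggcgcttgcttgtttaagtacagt
Sphkap: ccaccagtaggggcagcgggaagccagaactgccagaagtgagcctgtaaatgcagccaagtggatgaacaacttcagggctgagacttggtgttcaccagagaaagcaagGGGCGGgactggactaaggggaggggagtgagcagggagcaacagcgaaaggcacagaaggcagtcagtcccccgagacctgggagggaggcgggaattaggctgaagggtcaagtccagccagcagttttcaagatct
Adgrl3: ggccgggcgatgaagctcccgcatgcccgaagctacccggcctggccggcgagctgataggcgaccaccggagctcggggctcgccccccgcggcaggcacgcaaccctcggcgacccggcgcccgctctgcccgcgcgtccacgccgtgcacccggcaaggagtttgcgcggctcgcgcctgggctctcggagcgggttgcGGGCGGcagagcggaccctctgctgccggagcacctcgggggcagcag
Ptprz1: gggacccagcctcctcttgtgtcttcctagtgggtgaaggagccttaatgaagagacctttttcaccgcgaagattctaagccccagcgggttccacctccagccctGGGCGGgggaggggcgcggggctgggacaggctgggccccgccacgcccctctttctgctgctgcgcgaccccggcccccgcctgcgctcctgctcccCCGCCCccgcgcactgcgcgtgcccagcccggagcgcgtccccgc
The Ptprz1 window holds 2 GC-box matches, the Sphkap and Adgrl3 windows hold 1 each, and the Lsamp window holds 1 CCAAT match and no GC box. No matches overlap in these windows. Over 7 members with a RefSeq entry, 9 of 15 windows had GGGCGG, against 32.7% of all 32851 windows of the same length. CCAAT was in 4 of 15 against 33.9% of all windows, and TATAAA in 1 of 15 against 12.4%. Some of the 15 windows overlap, such as a pair of Adgrl3, so they are not independent. A match describes letters and no binding was measured.

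Over all epithelial cells, 6 of the 8 members reached 20 CPM in 1 of the libraries, and none of them in both. Lsamp, Cadm2, Nav3 and Sphkap were at least 2-fold lower in the library labelled Pax6 +/-, where 6.44% of 7092 genes were lower by that rule. Adgrl3 and Ptprz1 were at least 2-fold higher, where 13.2% of genes were. Because the members were chosen on this contrast and each passed the minimum only through the library where it is high, nothing is read from these counts. Dab1, at 18.1 and 3.55 CPM, and Anks1b, at 19.4 and 1.60 CPM, lay just below the minimum of 20 CPM and were not counted.

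The epithelium of the libraries was composed differently, and the members were spread unevenly over its cells. Cells with at least 20 Krt12 UMIs per 10000, called Krt12-high, made up 97.9% of wt epithelial cells (8376 cells) and 8.55% of those labelled Pax6 +/- (581 cells). Krt12 itself stood at 29618 and 1769 CPM over all epithelial cells. Krt12-low cells with at least 5 Gpha2 UMIs per 10000 numbered 122 in wt, 1.43% of the epithelium, and 1706 in the library labelled Pax6 +/-, 25.1%. In wt, Krt12-high cells carried 99.9% of Lsamp UMIs, 99.9% of Nav3 UMIs and 99.8% of Sphkap UMIs, whereas the Krt12-low Gpha2-positive cells carried 72.8% of Adgrl3 UMIs and 84.6% of Ptprz1 UMIs. Levels are therefore given below within each group, and what the mixture of cells adds to the ratios over all epithelium was not tested. The Krt12 cut lay near the wt level outside the epithelium, where vessel and immune cells held 1582 CPM of Krt12 and Schwann-like cells 3363 CPM. Of Gpha2-positive epithelial cells, 122 of 274 were Krt12-low in wt and 1706 of 1718 in the other library. Groups of the same name therefore need not hold the same kinds of cells in both libraries.

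**Figure D1:**
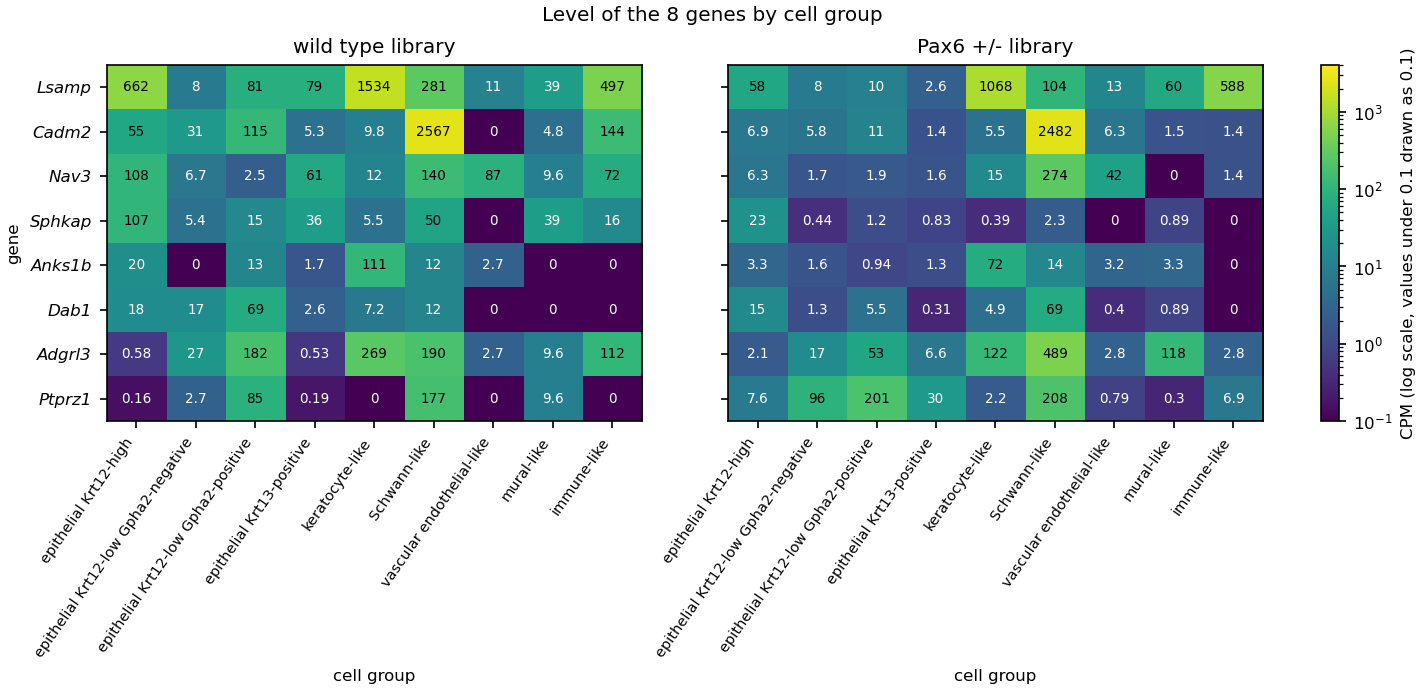
Heat map of member levels in CPM (printed in each cell, colour on a log scale, values under 0.1 drawn as 0.1) by cell group, wt beside the library labelled Pax6 +/-; the Krt13-positive group overlaps the other epithelial groups. Among the epithelial groups Lsamp, Nav3 and Sphkap are high in wt Krt12-high cells, and Adgrl3 and Ptprz1 in Krt12-low Gpha2-positive cells of both libraries. Cadm2 is high in Schwann-like cells. Adgrl3 is higher in keratocyte-like cells of both libraries than in any epithelial group, and also in Schwann-like cells labelled Pax6 +/-.

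Among the adhesion molecules, Lsamp (ENSMUSG00000061080, chr16:39984361-42181679, plus strand, GRCm38, a 2197 kb gene) stood at 651 CPM in wt epithelium and 13.4 CPM in that of the library labelled Pax6 +/-, from 72416 and 1391 UMIs. The ratio was 0.0207 (0.0196 to 0.0218). Within Krt12-high cells it was 662 against 58.3 CPM, a ratio of 0.0882 (0.0812 to 0.0956), so the gap was narrower there. In Krt12-low Gpha2-positive cells the values were 81.3 and 10.2 CPM, a ratio of 0.126 (0.0987 to 0.161), and in Krt12-low Gpha2-negative cells 8.04 and 8.03 CPM, from only 6 UMIs in wt. The level also moved with depth: from the lowest to the highest quartile of total UMIs in wt Krt12-high cells, Lsamp stood at 1256, 1142, 757 and 383 CPM. Krt12-high cells had a median of 11366 UMIs in wt and 17276 in the library labelled Pax6 +/-, and the part of depth in their ratio was not tested. After each cell was thinned to 5000 UMIs, 72.9% of wt epithelial cells had a Lsamp UMI against 3.86%, where the unthinned shares were 78.7% and 6.31%. Keratocyte-like cells, the fibroblast-like cells of the stroma, had the highest Lsamp level of the named groups in both libraries, 1534 and 1068 CPM, and here the libraries lay within 2-fold of each other. In wt the order below keratocytes was Krt12-high, immune-like, Schwann-like and Krt12-low Gpha2-positive cells, with intervals that did not overlap. The immune-like value of 497 CPM came from 3 cells. With at least 5 Schwann markers required, the Schwann-like value went from 281 to 50.4 CPM, against 81.3 CPM in the Krt12-low Gpha2-positive cells. That lower value rests on few UMIs, so the order of these groups is not settled. In the library labelled Pax6 +/- the mural-like cells at 60.4 CPM and the Krt12-high cells at 58.3 CPM could not be ordered beyond counting error.

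Cadm2 (ENSMUSG00000064115, chr16:66655421-67620908, minus strand, 965 kb) stood higher in Schwann-like cells than in any other named group of either library. It stood at 2567 CPM in the 76 wt Schwann-like cells and 2482 CPM in the 257 labelled Pax6 +/-, a ratio of 0.967 (0.887 to 1.06) that counting error does not separate from 1. Epithelial levels were 55.3 and 7.16 CPM, a ratio of 0.130 (0.120 to 0.140). In wt it stood at 54.8 CPM in Krt12-high and 115 CPM in Krt12-low Gpha2-positive cells, and the ratio between libraries was alike in both, 0.126 in the first and 0.10 (0.0811 to 0.124) in the second. In Krt12-high cells labelled Pax6 +/- the level rested on 70 UMIs in 15 cells, 29 of them in 1 cell. The thinned share of epithelial cells with a Cadm2 UMI was 19.4% against 2.75%.

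Of the receptors, Adgrl3 (ENSMUSG00000037605, chr5:81020138-81825133, plus strand, 805 kb) had opposite ratios over all epithelium and within the cells that carried most of it in wt. Over all epithelium it stood at 2.74 CPM in wt and 23.0 CPM in the library labelled Pax6 +/-, a ratio of 8.38 (7.44 to 9.48). Within Krt12-low Gpha2-positive cells it stood at 182 CPM in wt and 52.7 CPM in the library labelled Pax6 +/-, from 222 and 1184 UMIs, a ratio of 0.289 (0.251 to 0.336). Thinned shares in that group went the same way, with a UMI in 38.5% (29.6 to 47.9, Clopper-Pearson) of wt cells and 17.2% (15.4 to 19.2) of the others. Krt12-low Gpha2-negative cells held 26.8 and 16.5 CPM, and Krt12-high cells held 0.576 and 2.07 CPM from 63 and 21 UMIs. That last difference was not seen in all cells: with only the cells with Xist of the library labelled Pax6 +/- the ratio was 1.04 (0.274 to 2.79), from 4 UMIs. The ratio over all epithelium and the ratio inside the Gpha2-positive group therefore point in opposite directions while the second group's share of cells went from 1.43% to 25.1%. When only the 25 wt and 92 other cells of that group with UMIs of fewer than 2 markers of other cell types were kept, the log2 ratio went from -1.79 to -0.65. Across wt groups keratocyte-like cells led with 269 CPM, and the Schwann-like and Krt12-low Gpha2-positive levels, 190 and 182 CPM, could not be ordered. In the other library Schwann-like cells led with 489 CPM, and the keratocyte-like and mural-like levels, 122 and 118 CPM, could not be ordered.

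Ptprz1 (ENSMUSG00000068748, chr6:22875502-23052916, plus strand, 177 kb) was higher in the library labelled Pax6 +/- both over all epithelium and in each epithelial group. Over all epithelium it stood at 1.11 and 110 CPM, from 123 and 11362 UMIs, a ratio of 99.4 (83.2 to 120). Within Krt12-low Gpha2-positive cells the values were 85.4 and 201 CPM, a ratio of 2.35 (1.93 to 2.88), and within Gpha2-negative Krt12-low cells 2.68 and 95.7 CPM, the first from 2 UMIs. Krt12-high cells held 0.156 CPM in wt and 7.58 CPM in the library labelled Pax6 +/-, from 17 and 77 UMIs. The thinned share of epithelial cells with a UMI was 0.461% against 33.2%, and in the Gpha2-positive group 23.9% against 54.7%. Schwann-like cells had 177 and 208 CPM, a ratio of 1.17 (0.847 to 1.66), which counting error does not separate from 1. The Schwann-like and Krt12-low Gpha2-positive levels of the library labelled Pax6 +/-, 208 and 201 CPM, could not be ordered. Ptprz1 was lower in deeper cells, at 215, 195, 121 and 74.7 CPM by rising quartile of total UMIs in Krt12-low cells of that library.

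Among the cytoplasmic members, Nav3 (ENSMUSG00000020181, chr10:109681259-110456204, minus strand, 775 kb) stood at 106 and 2.19 CPM in epithelium, with a ratio of 0.0207 (0.0181 to 0.0236). It stood at 108 and 6.30 CPM in Krt12-high cells, with a ratio of 0.0585, and at 2.46 and 1.92 CPM in Krt12-low Gpha2-positive cells, where 3 wt UMIs allow a ratio from 0.249 to 3.92. Nav3 was also present in vascular endothelial-like cells at 86.8 and 42.4 CPM and in Schwann-like cells at 140 and 274 CPM. In wt the Schwann-like, Krt12-high and vascular levels could not be ordered beyond counting error, whereas in the library labelled Pax6 +/- both other groups stood above the Krt12-high cells. The thinned share of epithelial cells with a Nav3 UMI was 34.4% against 0.943%.

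Sphkap (ENSMUSG00000026163, chr1:83254139-83408200, minus strand, 154 kb) followed Krt12-high cells in both libraries. It stood at 105 and 2.78 CPM over all epithelium, with a ratio of 0.0265 (0.0235 to 0.0298), and at 107 and 22.5 CPM in Krt12-high cells, a ratio of 0.211 (0.185 to 0.241). The 581 Krt12-high cells labelled Pax6 +/- carried 79.5% of that library's epithelial Sphkap UMIs. No Sphkap UMI was found in 67 wt and 294 other vascular endothelial-like cells, while 38.7% and 1.25% of thinned epithelial cells had one. Below the wt Krt12-high cells, the Schwann-like and mural-like levels of 49.5 and 38.6 CPM rested on 12 and 8 UMIs and could not be ordered.

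Dab1 (ENSMUSG00000028519, chr4:103619359-104744844, plus strand) stood at 18.1 and 3.55 CPM over all epithelium, with a ratio of 0.196 (0.175 to 0.219). Within Krt12-high cells the libraries were close, at 17.6 and 15.2 CPM, a ratio of 0.863 (0.728 to 1.02). Within Krt12-low Gpha2-positive cells it stood at 69.0 CPM in wt and 5.52 CPM in the library labelled Pax6 +/-, a ratio of 0.0801 (0.0602 to 0.107), with a UMI in 27.4% and 2.19% of thinned cells. Whether the ratios differ between these groups was not tested. Without cells with UMIs of 2 or more markers of other types, which left 27 Krt12-high cells labelled Pax6 +/-, the Krt12-high log2 ratio went from -0.21 to -1.96. In wt, the Krt12-high, Krt12-low Gpha2-negative and Schwann-like levels of Dab1, 17.6, 17.4 and 12.4 CPM, could not be ordered beyond counting error. Both of the latter rest on few UMIs.

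Anks1b (ENSMUSG00000058589, chr10:89873509-90973300, plus strand) stood at 19.4 and 1.60 CPM in epithelium, with a ratio of 0.0823 (0.0698 to 0.0964), and at 19.6 and 3.35 CPM in Krt12-high cells, a ratio of 0.171. The second of these values came from 34 UMIs in 9 cells, with 23 UMIs in 1 cell. Keratocyte-like cells had the highest Anks1b level of the named groups in both libraries, 111 and 72.1 CPM, a ratio of 0.649. The wt Krt12-high, Krt12-low Gpha2-positive and Schwann-like levels, 19.6, 13.1 and 12.4 CPM, could not be ordered.

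**Figure D2:**
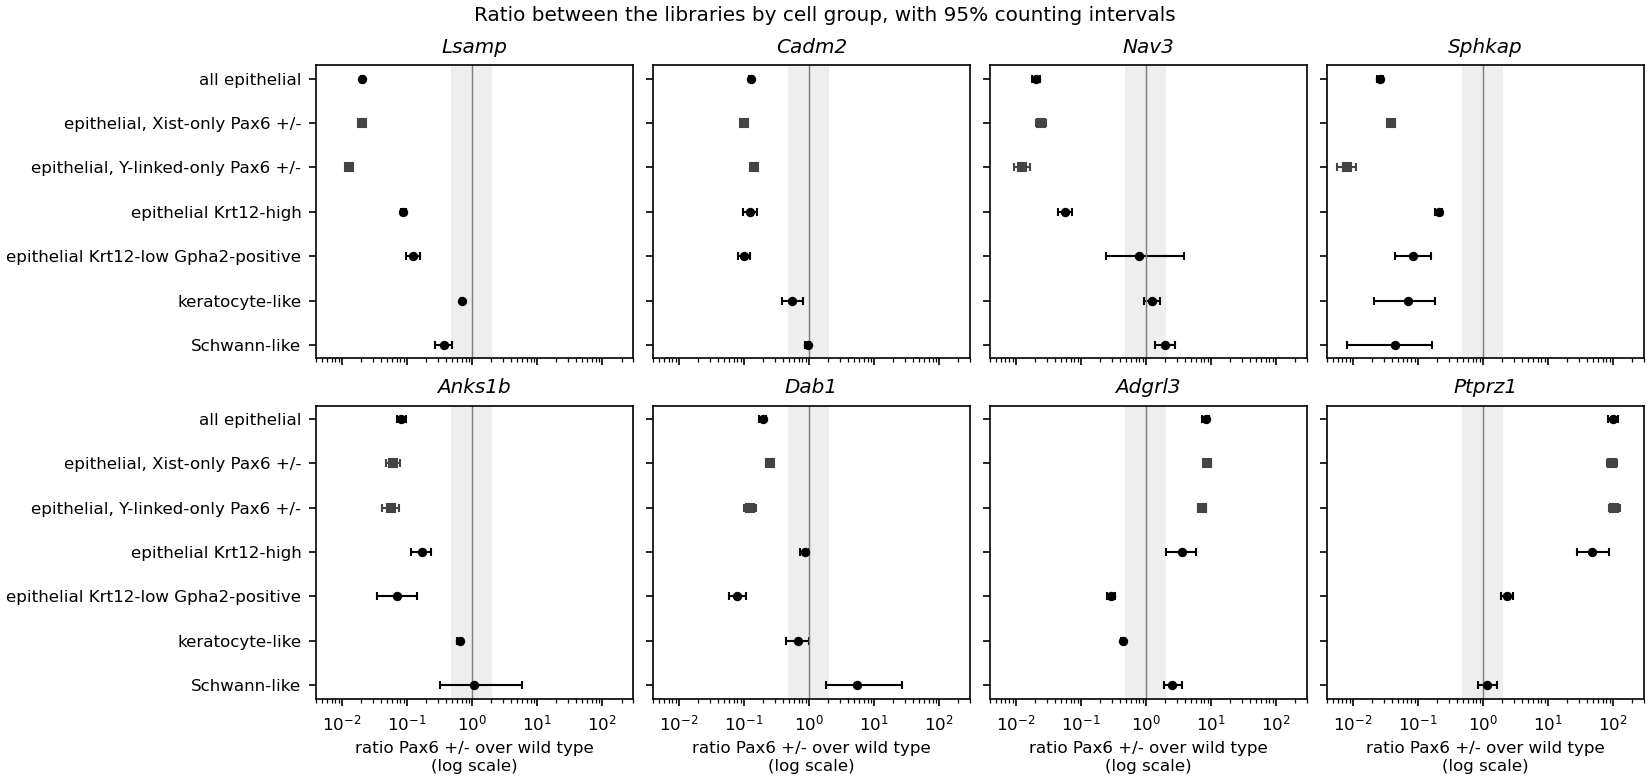
Ratio of each member's CPM in the library labelled Pax6 +/- over wt (log axis, bars are 95% counting intervals, grey band is within 2-fold) by cell group; squares are ratios that use only cells with Xist or only cells with Y-linked UMIs. Adgrl3 is at 8.38 over all epithelium and 0.289 in Krt12-low Gpha2-positive cells, and Dab1 is at 0.863 in Krt12-high cells; Ptprz1 in keratocyte-like cells is not drawn because wt is at 0.

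The same counting was made inside the cell groups. Cadm2 and Nav3 in Krt12-high cells and Lsamp, Cadm2 and Dab1 in Krt12-low Gpha2-positive cells passed 20 CPM through wt alone. So did Cadm2 in Krt12-low Gpha2-negative cells and Sphkap in Schwann-like cells. Ptprz1 in Krt12-low Gpha2-negative cells and Dab1 in Schwann-like cells passed it through the other library alone. As the members were also chosen on differences in this epithelium, nothing is read from these counts. In Krt12-high cells, Lsamp, Cadm2, Nav3 and Sphkap were the 4 members at 20 CPM and were at least 2-fold lower, where 5.17% of 6716 genes were lower and 8.92% higher. In Krt12-low Gpha2-positive cells, Lsamp, Cadm2, Adgrl3 and Dab1 were lower, where 4.1% of 7169 genes were, and Ptprz1 was higher, where 6.72% were. In Krt12-low Gpha2-negative cells Cadm2 was lower, where 6.42% of genes were, and Ptprz1 higher, where 15.6% were. In Schwann-like cells Lsamp and Sphkap were lower, where 11.1% of 8253 genes were, and Adgrl3 and Dab1 were higher, where 12.8% were. With at least 5 Schwann markers the direction of Lsamp turned, to 50.4 against 107 CPM, and Sphkap stood at 6.30 against 2.44 CPM. These wt values rest on few UMIs, so no direction is read from them. In keratocyte-like cells, which the choice of members did not use, only Adgrl3 of the 3 members at 20 CPM was lower, at 269 and 122 CPM and a ratio of 0.455 (0.424 to 0.488), where 6.2% of genes were lower and 8.48% higher. Lsamp and Anks1b lay within 2-fold there.

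Within a library, Krt12-high and Krt12-low cells differed in most members. In wt, Lsamp, Nav3 and Sphkap were at least 2-fold higher in Krt12-high cells, where 4.49% of genes were, and Adgrl3, Dab1 and Ptprz1 lower, where 8.7% were. In the library labelled Pax6 +/-, Lsamp and Sphkap were higher there, where 3.06% of genes were, and Adgrl3 and Ptprz1 lower, where 4.47% were. Several of these members did not reach 20 CPM in both groups, so nothing is read from these counts.

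Finer bins of Krt12 showed where along its range each member was highest among the wt epithelial cells. Depth rose along the upper bins, with medians of 10388, 10430, 12675 and 15926 UMIs in those from 100 to 200 up to that from 400. In wt Krt12-high cells Lsamp, Cadm2, Nav3, Sphkap, Dab1 and Anks1b were lowest in the deepest quartile of total UMIs. The part of depth in the bins was not tested. Lsamp stood at 54.6 CPM in cells with 1 to 20 Krt12 UMIs per 10000, reached 587, 932 and 919 CPM in the bins from 20 to 100, 100 to 200 and 200 to 300, and stood at 523 and 228 CPM in the bins from 300 to 400 and from 400. Sphkap and Nav3 were also highest in the middle bins, Sphkap at 121 CPM and Nav3 at 125 CPM in the bin from 200 to 300, against 11.4 and 4.16 CPM in the bin from 1 to 20. Dab1 and Anks1b were low in the bin from 400. Dab1 stood at 73.7 CPM in the bin from 20 to 100 and 1.74 CPM in the bin from 400, and Anks1b, highest in the same bin as Lsamp, at 35.8 CPM in the bin from 100 to 200 and 2.08 CPM in the bin from 400. Adgrl3 and Ptprz1 were highest in the lowest bin drawn for wt, with 126 and 55.1 CPM in the bin from 1 to 20, 8.05 and 2.17 CPM in the next, and at most 0.612 CPM above it. Cadm2 stood between 71.0 and 84.8 CPM in the 4 bins up to 300, apart from 43.8 and 19.0 CPM above them.

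Levels in the library labelled Pax6 +/- also varied along Krt12. Lsamp was highest at 82.2 CPM in the bin from 100 to 200 and stood at 8.86 CPM in the 5776 cells with under 1 Krt12 UMI per 10000. Sphkap likewise went from 0.528 CPM in that lowest bin to 32.3 CPM in the bin from 100 to 200. Dab1 in that bin, at 22.0 CPM, lay below the 37.0 CPM of wt but above the 2.00 CPM of the lowest bin. Ptprz1 ran the other way, from 124 CPM in the lowest bin to 17.2 CPM in the bin from 20 to 100 and 0 UMIs in the 27 cells from 400. Krt12 outside the epithelium was higher in the wt library, where vessel and immune cells together held 1582 CPM against 26.2 CPM in the other. Low Krt12 bins may therefore not hold the same background in both. Whether this Krt12 came from free RNA or from doublets was not tested, nor was its part in the bins. The wt bin from 20 to 100 also had shallower cells, with a median of 5206.5 UMIs.

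**Figure D3:**
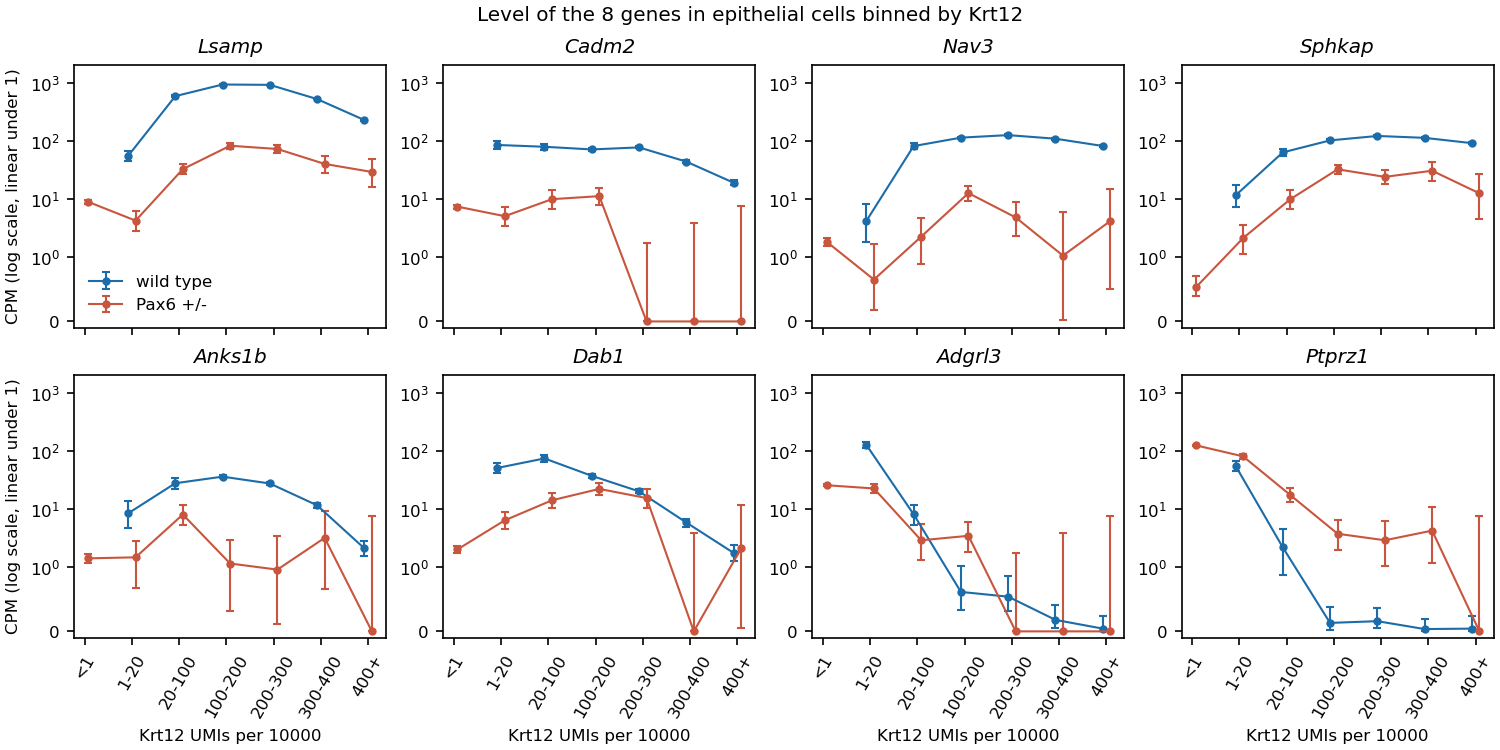
Member levels in CPM (log axis, linear under 1; bars are 95% Poisson intervals) against the cell's Krt12 UMIs per 10000, wt and the library labelled Pax6 +/- in separate lines. Lsamp, Nav3 and Sphkap are highest in the middle Krt12 bins and Adgrl3 and Ptprz1 in the lowest; the wt bin under 1 per 10000 holds 2 cells and is not drawn.

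Correlations over single cells, which share a library and carry sparse counts, were weak and are given as a description. In thinned wt epithelial cells Spearman's rho with Krt12 was -0.23 for Dab1, -0.21 for Lsamp, -0.14 for Adgrl3 and 0.06 for Sphkap over 6944 cells. In 5938 thinned cells labelled Pax6 +/- it was 0.22 for Sphkap, 0.15 for Lsamp, 0.11 for Dab1 and -0.19 for Ptprz1. With Gpha2, rho was 0.21 for Adgrl3 and 0.16 for Ptprz1 in wt, and 0.20 and 0.34 in the library labelled Pax6 +/-. UMIs per cell of Sphkap, Nav3 and Lsamp also went with the cell's total, with rho of 0.33, 0.27 and 0.21 in wt, which is why the thinned values lead. Thinning did not remove depth: in wt the thinned counts had rho with the full total of -0.33 for Lsamp and -0.16 for Cadm2. For Sphkap, Nav3 and Dab1 it was -0.15, -0.14 and -0.13. The part of depth in the correlations with Krt12 was not tested.

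Adgrl3 and Ptprz1 were often found in the same cells, but they also share a cell group. In wt the Krt12-low Gpha2-positive cells carried 72.8% of Adgrl3 UMIs and 84.6% of Ptprz1 UMIs. Of thinned wt cells with Ptprz1, 40.6% held Adgrl3, near the thinned Adgrl3 share of that group given above. Whether the genes go together inside the group was not tested. Of the 32 thinned wt epithelial cells with a Ptprz1 UMI, 13 also had an Adgrl3 UMI, while 57 of all 6944 cells had one. Among thinned cells labelled Pax6 +/-, 281 of the 1971 cells with a Ptprz1 UMI had Adgrl3, while 507 of all 5938 cells had it. Lsamp, which 72.9% of thinned wt epithelial cells held, was found in 11 of the 57 cells with Adgrl3 and in 6 of the 32 with Ptprz1. By contrast 1219 of the 1344 wt cells with a Cadm2 UMI also had Lsamp. These are few cells with sparse counts and are given as a description.

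Krt13-positive epithelial cells, those with at least 5 Krt13 UMIs per 10000, had lower levels of most members than Krt13-negative cells. In wt they were also deeper, with a median of 19884 against 10752 UMIs, and the median log2 ratio of all genes tested was -0.37; the part of depth was not tested. They were not low in Krt12: 857 of the 886 were Krt12-high, and Krt12 stood at 36127 CPM against 28136 CPM. In these 886 cells Lsamp stood at 79.4 CPM against 781 CPM in Krt13-negative cells, Cadm2 at 5.28 against 66.7, Anks1b at 1.70 against 23.4 and Dab1 at 2.57 against 21.7. Sphkap stood at 36.0 against 121 CPM, while Nav3 stood nearest, at 60.5 against 116 CPM. Of the 6 members with 20 CPM in this comparison 5 were lower in Krt13-positive cells by 2-fold or more, where 18.9% of all genes were, and 0 were higher, where 6.95% were. Cadm2, Dab1 and Anks1b reached 20 CPM only in the Krt13-negative cells, so nothing is read from this count. In 1544 Krt13-positive cells labelled Pax6 +/-, Ptprz1 stood at 30.3 against 146 CPM and Adgrl3 at 6.63 against 30.4 CPM. Here both members with 20 CPM were lower, where 9.87% of all genes were and 6.89% were higher, and the median depths were 17653 and 13632 UMIs.

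Krt14, a keratin of basal cells, ordered the wt members into those that followed it and those that did not. Tertile cuts were 0 and 7.82 Krt14 UMIs per 10000 in wt, so the lowest wt tertile had none. In the library labelled Pax6 +/- the cuts were 27.3 and 60.5, so tertiles of the libraries are not alike. Median depths of the wt tertiles were 8523, 12106 and 12389 UMIs, and the part of depth was not tested. From the lowest to the highest Krt14 tertile of wt epithelial cells, Dab1 stood at 6.84, 13.7 and 33.0 CPM, Anks1b at 11.6, 18.7 and 26.7 CPM and Lsamp at 513, 663 and 751 CPM. Nav3 went the other way with 121, 105 and 94.6 CPM, as did Sphkap with 117, 110 and 88.6 CPM. Of the 6 members with 20 CPM in either tertile, Dab1 and Anks1b were over 2-fold higher in the highest than in the lowest, where 6.85% of all genes were, and none was 2-fold lower, where 6.09% were. Adgrl3, at 0.697, 0.312 and 7.45 CPM, and Ptprz1, at 0.0332, 0.178 and 3.15 CPM, were also highest in the highest tertile but lay under 20 CPM. Ptprz1 stood at 47.4, 148 and 137 CPM and Adgrl3 at 10.5, 31.3 and 27.6 CPM in the tertiles of the library labelled Pax6 +/-. Both were 2-fold higher in the highest than in the lowest, where 4.49% of genes were higher and 6.25% lower. Dab1 and Anks1b in wt, and Adgrl3 in this library, did not reach 20 CPM in the lowest tertile, so nothing is read from these counts.

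Schwann cells, the glia of corneal nerves, were taken as cells under the keratin gate with at least 3 Schwann markers. They had 11 and 10 of 12 markers at 20 CPM, which is no separate check because the same 12 set the gate. Their Adgrl3 level was 190 CPM in wt and 489 CPM in the library labelled Pax6 +/-, a ratio of 2.58 (1.91 to 3.55). Dab1 stood at 12.4 and 68.8 CPM, with a ratio of 5.56 (1.84 to 27.4) that rests on 3 wt UMIs. Lsamp stood at 281 and 104 CPM in these cells, a direction that turned in the 52 and 227 cells with at least 5 markers, where wt held few UMIs. Sphkap stood at 49.5 and 2.27 CPM, from 12 and 3 UMIs. Krt12 stood at 3363 CPM in wt Schwann-like cells and 13.6 CPM in the others, which were also deeper, with medians of 2624 and 4741 UMIs. The part of this Krt12 RNA and of depth in the wt Lsamp and Sphkap levels was not tested.

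Cells with more markers of non-myelinating than of myelinating Schwann cells carried most of the Cadm2. They stood at 3247 CPM (52 wt cells) and 3140 CPM (170 cells), against 245 CPM (19 cells) and 153 CPM (84 cells) in the myelinating kind, ratios of 13.2 and 20.5 (15.2 to 28.4). Ptprz1 leaned the same way in the library labelled Pax6 +/-, 18.3-fold (7.07 to 67.7). In wt it was 2.08-fold (0.810 to 6.79), from 35 and 5 UMIs, which counting error does not separate from 1. Adgrl3 in the non-myelinating kind stood at 168 and 569 CPM and in the myelinating kind at 208 and 203 CPM. Nav3 was present in both kinds, at 112 and 245 CPM and at 189 and 388 CPM.

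Markers of neurons were almost missing from the epithelium, with 0 of 7 at 20 CPM and a summed level of 0.944 and 3.70 CPM. Of the 12 Schwann markers 1, Mbp, reached 20 CPM in each library, and the list summed to 135 and 170 CPM. In the wt Krt12-low Gpha2-positive cells, which carry Adgrl3 and Ptprz1, the Schwann list summed to 211 CPM with Sox10, Cdh19, Scn7a, Foxd3, Gfra3, Fabp7 and Pmp2 at 0. Keratocyte markers did differ between libraries, with 1 of 6 at 20 CPM and a sum of 95.9 CPM in wt epithelium, and 4 of 6 and 419 CPM in that labelled Pax6 +/-. The list summed to 59863 and 79467 CPM in keratocyte-like cells themselves, which hold Lsamp, Adgrl3 and Anks1b. In the Krt12-low Gpha2-positive cells it summed to 41.9 and 334 CPM. Gpha2, which sets that gate, stood at 371 CPM in wt keratocyte-like cells, where 48.2% had a UMI, against 76.0 CPM over wt epithelium. The part of keratocyte RNA in the gate was not tested.

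Vascular endothelial-like cells, chosen as a comparison after the values were seen, show what share of cells holds a UMI of a member outside the epithelium. Their median depth was 4881 UMIs in wt and 7157 in the library labelled Pax6 +/-, against 11294 and 14175 in epithelial cells. After thinning, which left 32 and 210 of them, 6.25% and 0.476% had a Lsamp UMI, 0% and 1.90% a Cadm2 UMI and 0% and 1.43% an Adgrl3 UMI. With 32 wt cells a share of 0 allows up to 10.9% (Clopper-Pearson). The epithelial share of Cadm2 in the library labelled Pax6 +/-, 2.75%, and that of Adgrl3 in wt, 0.821%, lie near these values or within their interval. Neither is read as expression across the epithelium as a whole. The Adgrl3 share is an average, as the Krt12-low Gpha2-positive cells, 1.43% of wt epithelial cells, carried 72.8% of its UMIs. Shares of cells for Ptprz1, Nav3 and Anks1b were not set against these cells. By CPM the epithelial Lsamp level of the library labelled Pax6 +/-, 13.4, also lay beside the 12.7 of its vascular endothelial-like cells, where all 32 UMIs came from 1 cell.

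Within the library labelled Pax6 +/- the cells could be split by sex. Epithelial Ptprz1 stood at 107 CPM in 3376 cells with Xist only and at 118 CPM in 2485 cells with Y-linked UMIs only, and Adgrl3 at 24.3 and 20.1 CPM. Lsamp stood at 13.5 and 8.37 CPM and Nav3 at 2.64 and 1.35 CPM, all below the wt levels. In the Krt12-low Gpha2-positive group Adgrl3 was 62.7 and 41.9 CPM, both below the 182 CPM of wt, and Dab1 was 6.96 and 3.85 CPM. Sphkap in Krt12-high cells stood at 26.5 and 10.5 CPM, both below the 107 CPM of wt. These cells come from at most 2 mice, so sex, animal and dissection cannot be told apart.

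Most members are long genes. Lsamp, Cadm2, Nav3, Adgrl3, Dab1 and Anks1b span over 500 kb, whereas Ptprz1 and Sphkap span 177 and 154 kb and also lie far from a ratio of 1. The 76 other genes over 500 kb with 20 CPM had a median log2 ratio of 0.51, where that of all genes tested was 0.17, and 8 of them (10.5%) were lower and 32 (42.1%) higher. UMIs of 227 other genes over 500 kb made up 0.820% of wt epithelial UMIs and 1.18% of those labelled Pax6 +/-. Lsamp, Cadm2 and Nav3 were thus on the side of the 8, and Adgrl3 on that of the 32. Small same-strand gene models overlap 7 of the members, all but Ptprz1, and how shared reads were assigned is not given in the sources used here.

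**Figure D4:**
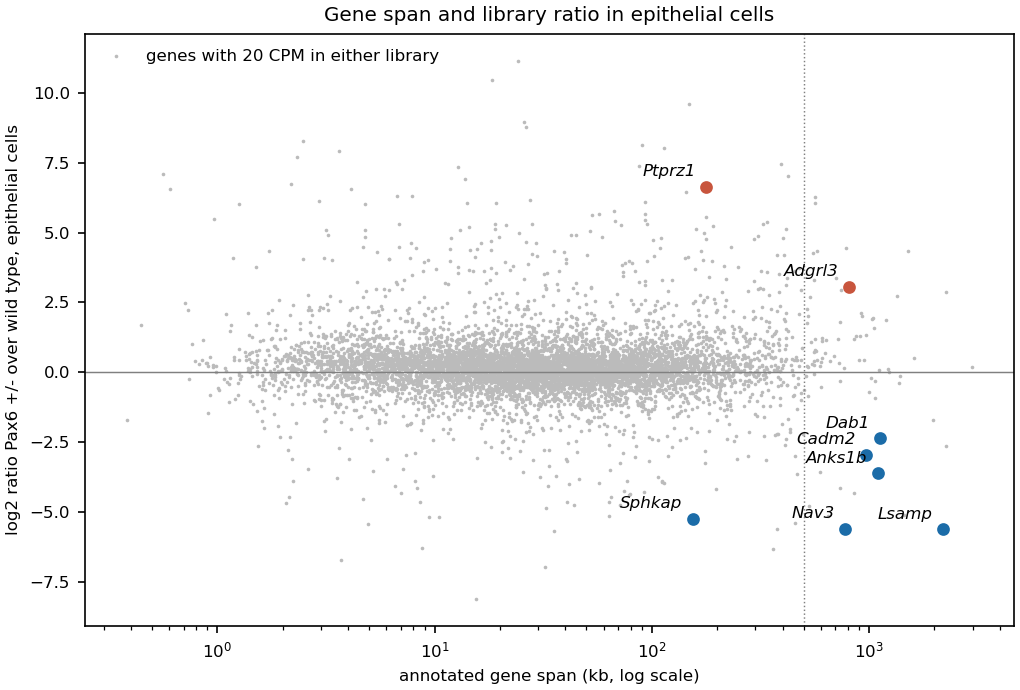
Log2 ratio of epithelial CPM, library labelled Pax6 +/- over wt, against gene span in kb (log axis); grey points are genes with 20 CPM in either library, coloured points the 8 members, and the dotted line marks 500 kb. Dab1 and Anks1b are drawn although they lie under 20 CPM; the members sit at both ends of the ratio axis, and the shortest 2, Sphkap and Ptprz1, lie on opposite sides.

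Other genes of the members' pathways were followed through 9 lists, which were drawn up with earlier results of these data known. Of their 129 genes, 54 had 20 CPM in epithelium, 6 were at least 2-fold lower, where 6.44% of all genes tested were, and 11 higher, where 13.2% were. The shares of all genes apply to each list below, and nothing particular to a list is read from its counts. Their median log2 ratio was 0.12 beside 0.17 for all genes. Scaling by edgeR's TMM or DESeq2's size factors would shift every log2 ratio by -0.33 or -0.35, which leaves the direction of each gene named below but brings Magi1, Ptprs, Kalrn and Trio under 2-fold and Akap9 past it. Of 14 partners of Ptprz1 listed, 6 were measured, 4 were higher and none lower, with a median log2 ratio of 2.55. Pleiotrophin (Ptn), its secreted ligand, stood at 16.3 and 259 CPM, midkine (Mdk) at 3.83 and 64.2 CPM, and tenascin C (Tnc), a matrix glycoprotein, at 0.225 and 37.6 CPM. The same 3 genes were higher within Krt12-low Gpha2-positive cells, at 195 and 428, 39.4 and 118, and 4.93 and 52.2 CPM, and the scaffold Magi1 was the 4th, at 49.6 and 108 CPM over all epithelium.

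Of the partners of latrophilins, Flrt2 stood at 1.55 and 105 CPM and the teneurin Tenm4 at 6.79 and 52.6 CPM, both higher, while the netrin receptor Unc5c stood at 25.02 and 5.34 CPM. In total 5 of 14 genes were measured, 1 lower and 2 higher. Of the immunoglobulin adhesion genes 5 of 16 were measured, and 2 were lower: Chl1, an L1-family molecule, at 424 and 76.7 CPM and Alcam at 407 and 171 CPM. The third by size, L1cam, stood at 26.2 and 34.6 CPM. None of 10 contactins and contactin-associated genes reached 20 CPM. Among neurexins, neuroligins and their partners 6 of 16 were measured, with the phosphatase Ptprd lower at 166 and 26.9 CPM and Il1rap and Ptprs higher at 7.44 and 21.1 and at 62.7 and 129 CPM.

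The remaining lists hold intracellular partners. In the reelin list 6 of 11 were measured and none passed 2-fold; the widest were Dab2ip at 27.2 and 50.8 CPM, Rapgef1 at 17.5 and 26.01 CPM and Crk at 76.9 and 65.3 CPM. In the protein kinase A list 10 of 18 were measured and none passed, the widest being Prkacb, a catalytic subunit, at 16.2 and 29.2 CPM, Akap9 at 290 and 173 CPM and Prkar2a at 49.5 and 75.1 CPM. Of 8 navigator and microtubule genes measured, of 13 listed, 3 were higher: Nav2, a paralogue of Nav3, at 3.32 and 34.1 CPM, Kalrn at 35.2 and 83.6 CPM and Trio at 49.9 and 116 CPM. Nav2 and Nav3 thus stood on opposite sides. Of 10 junction and synapse scaffolds measured, of 20 listed, 2 were lower, Homer2 at 288 and 21.5 CPM and Dlg2 at 100 and 30.6 CPM, and Magi1 was higher.

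Over 28 groups that share cells and 11327 genes, Pearson's r of log2(CPM + 1) named the genes with the most similar levels to each member, as a description. The closest were Gyg (0.95), Ppp1r3c (0.92) and Apip (0.92) to Sphkap, Moxd1 (0.93), 0610040J01Rik (0.91) and Rnf128 (0.89) to Ptprz1, and Apcdd1 (0.90), Tnfrsf19 (0.87) and Ldlrad3 (0.87) to Adgrl3. For Cadm2 they were Slc24a2 (0.89), Ddhd1 (0.89) and Cntf (0.88), and for Anks1b Scrn1 (0.91), Mettl15 (0.81) and Fn1 (0.80). Lsamp was followed by Snx29 (0.85), Satb1 (0.82) and Lrp12 (0.81), Nav3 by 4930453N24Rik (0.85), Lamb1 (0.84) and E130308A19Rik (0.84), and Dab1 by Eef2k (0.82), Asph (0.81) and Cadm2 (0.80). Among the members themselves the highest values were 0.80 for Cadm2 with Dab1 and 0.71 for Lsamp with Anks1b, and Lsamp with Ptprz1 had -0.51.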

How the data were processed

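Single-cell libraries of mouse cornea and limbus, 1 wt and 1 labelled Pax6 +/-, were analysed. Each deposited matrix holds raw counts, UMIs per gene and barcode, made with Cell Ranger 8.0.0 per the file headers and with GRCm38 per the submitters' processing notes; whether intronic reads were counted is not given in the sources used here. The libraries held 124540296 UMIs in 11354 barcodes and 131567589 UMIs in 10574. Kept cells had at least 500 genes, 1000 UMIs and no more than 20% of UMIs from mitochondrial genes. In these, Scrublet (scanpy 1.11.5) marked 3 wt cells (0.0295%) and 38 others (0.398%), so it has not worked, and no doublets were removed.

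Groups were gated on Krt5, Krt14 and Krt15 (30 per 10000 UMIs together), Krt12 (20), Krt13 (5) and Gpha2 (5), and other types on at least 3 of their markers (the keratocyte, Schwann, melanocyte, vascular and lymphatic endothelial, mural and immune lists; 0 cells were melanocyte-like). Neuron and pan-epithelial lists were read as levels. Counts were summed per group and scaled to CPM; 95% intervals are exact Poisson for levels, Clopper-Pearson for shares and conditional binomial for ratios, for counting error only. A gene with 20 CPM in either library counted as lower or higher from 2-fold. Simulated counts for the epithelial comparison over 6010 genes were independent Poisson draws at wt rates, with planted changes wider than 2-fold. In them 200 of 200 changed genes passed 2-fold, 0 unchanged genes did, and 95.0% of intervals held the true ratio. This checks the code only, because real UMIs also cluster in cells and the draws did not.

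The members, gene lists and markers were chosen with earlier results of these data known. Named genes are the members, Krt12, Pax6, the 3 most similar genes for each member and up to 3 genes per list with the largest log2 ratio; Magi1 is named again as the 4th higher gene of the Ptprz1 partners, chosen after its value was seen. Promoters came from the RefSeq table, and 32235 of 32285 gene identifiers matched the GENCODE annotation of GRCm38. Alternatives covered scaling (edgeR 4.0.16 in R 4.3.3 and DESeq2 1.42.0 factors only), gates, filters, depth, doublet scores, other cell types, free RNA and sex. Python 3.11.15, numpy 2.4.6, scipy 1.17.1, pandas 2.3.3 and matplotlib 3.10.9 were used.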

Additional observations from a re-analysis of the deposited data

Results flagged for a closer look

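Adgrl3 and Dab1 had ratios on opposite sides of 1 in different cell groups, and the difference between groups was not tested. The ratio of the library labelled Pax6 +/- over wt for Adgrl3 was 3.59 in Krt12-high cells, from 21 UMIs in the library labelled Pax6 +/-, and 2.58 in Schwann-like cells, but 0.289 in Krt12-low Gpha2-positive cells and 0.455 in keratocyte-like cells. The Krt12-high ratio was 1.04 (0.274 to 2.79) with only the cells with Xist of that library and 4.54 with only those with Y-linked UMIs. For Dab1 it was 5.56 in Schwann-like cells, from 3 wt UMIs, but 0.0801 in Krt12-low Gpha2-positive and 0.0721 in Krt12-low Gpha2-negative cells.

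Cells below the keratin gate that no marker list named held several members at levels above those of the epithelium. In 676 such wt cells with 20 or more Krt12 UMIs per 10000, Lsamp stood at 1950 CPM, Nav3 at 268 CPM and Sphkap at 165 CPM. These cells had a median of 4041.5 UMIs and Malat1, a nuclear RNA, at 40053 CPM, against 17369 CPM in wt epithelial cells. In the library labelled Pax6 +/-, Ptprz1 stood at 260 CPM in 385 unnamed Krt12-low cells, with a median of 3055 UMIs and Malat1 at 45553 CPM, and Sphkap stood at 181 CPM in 46 unnamed Krt12-high cells.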

How the results depend on the processing

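No paired analysis was possible because each genotype has 1 library. Scaling changed the counts over all genes: in place of 457 lower and 939 higher genes, edgeR's TMM factor gave 794 and 555 and DESeq2's size factors 825 and 543. These factors shift every log2 ratio by -0.33 and -0.35, move the median of all genes to -0.20 and -0.22, and bring the share of higher genes among those past 2-fold from 67.3% to 41.1% and 39.7%. The minimum moved them further, with 706 lower and 1784 higher genes at 5 CPM and 3009 and 8597 without one. Of the members, 1 in place of 2 was higher with the keratin gate at 100 per 10000 and with the level in vessel and immune cells subtracted. Under the 13 or 14 alternatives each, none of the 8 epithelial ratios changed direction, with log2 ratios from -6.87 to -4.42 for Lsamp, -3.30 to -1.61 for Cadm2, -7.69 to -5.33 for Nav3, 1.71 to 3.85 for Adgrl3, -3.00 to -2.00 for Dab1, -5.31 to -1.64 for Anks1b, 5.10 to 7.42 for Ptprz1 and -6.93 to -4.63 for Sphkap. Removing cells with UMIs of 2 or more markers of other types took 74.3% and 94.5% of epithelial cells, so several values could not be given there, nor could those of 5 members under subtraction. In Krt12-low Gpha2-positive cells Adgrl3 ranged from -2.12 to -0.65 and Ptprz1 from 0.84 to 2.09. In Krt12-high cells Adgrl3 ranged from 0.05 to 2.18 and Dab1 from -1.96 to -0.12. The rank correlation of Nav3 with Krt12 in wt changed sign on thinning, from 0.065 to -0.003. The cause of these changes was not tested, and depth limits values that rest on few UMIs, such as Nav3 in wt Krt12-low cells.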

Other observations

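Malat1, a nuclear RNA, moved with several members inside a library. From the lowest to the highest quartile of Malat1 in wt Krt12-high cells, Lsamp stood at 529, 529, 655 and 1263 CPM, Nav3 at 74.2, 89.7, 107 and 219 CPM and Cadm2 at 34.5, 42.1, 58.5 and 117 CPM. Dab1 stood at 20.1, 15.2, 15.7 and 23.0 CPM. Depth moved with Malat1: the median was 5469 UMIs in the highest quartile against 11422, 14930 and 13044 in the others, and these were not separated. Epithelial cells held 17369 CPM of Malat1 in wt and 11577 CPM in the library labelled Pax6 +/-, and the part of this in the ratios was not tested.

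Immune-like cells held Lsamp in both libraries. In the library labelled Pax6 +/- 49 of 99 such cells had a Lsamp UMI, with 588 CPM, and in wt 62 UMIs lay in 3 of 27 cells, with 497 CPM. Mural-like cells of the library labelled Pax6 +/- held Adgrl3 at 118 CPM in 164 of 503 cells, against 9.65 CPM from 2 UMIs in 54 wt cells.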
